A study of Caenorhabditis elegans with 2 samples.

Results

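Touch receptor neurons and GABA motor neurons are cell types in which the homeodomain factor ALR-1 acts in Caenorhabditis elegans. The 10 genes described here make the specialised products of those cells. They comprise 7 touch receptor genes (mec-2, mec-4, mec-7, mec-10, mec-12, mec-17 and mec-18) and 3 GABA genes (unc-25, unc-46 and unc-47), out of 19973 nuclear protein-coding genes in the annotation. They were chosen by name for these roles and not by a rank or signal, though earlier results of these data were known at the time. The binding data are chromatin immunoprecipitation with sequencing (ChIP-seq) of ALR-1 carrying a C-terminal GFP-FLAG tag, precipitated with an antibody against GFP. The animals were L1 larvae of strain OP362, which carries the integrated transgene wgIs362 and the mutation unc-119(tm4063) on chromosome III. Males and females were pooled at an age of 6 hours, starved after bleaching. There was 1 group of 2 biological replicates, both with the same alleles, so no condition can be compared with another, and no p-value is given.

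In touch receptor neurons, the LIM homeodomain factor MEC-3 and the POU homeodomain factor UNC-86 switch on the genes of the mechanosensory channel and of the cells' thick microtubules. In the GABA motor neurons of the nerve cord, the homeodomain factor UNC-30 switches on the genes that make and package GABA. ALR-1 acts beside these regulators, with MEC-3 in the touch receptor neurons and with UNC-30 in GABA motor neurons. Both cell types are a small part of a larva, and whole larvae were used, so the lists cannot tell in which cells a region was bound.

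For each replicate, and for both replicates pooled, the authors deposited 30000 regions that mix peaks with background. The regions carry a signal value, by which they were ranked from 1 (the strongest) to 30000 within their list. A region was counted for a gene when its summit, the middle of the region, lay inside the gene or up to 1500 bp upstream of its annotated 5′ end. Signal ran from 42.2 to 204 in the pooled list with a median of 53.3, from 21.8 to 102 in replicate 1 and from 23.3 to 102 in replicate 2. These values are the authors' and are compared only within a list. Absence from a list says only that no region there was among its 30000, which is not a signal of 0. Read depth is unknown from lists of regions. A further list of 182 peaks passed the authors' irreproducible discovery rate (IDR) threshold, and these were the 182 strongest regions of the pooled list.

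None of the 10 genes held an IDR peak, and their strongest region, at unc-46, stood at rank 1169 of the pooled list. That was 0 of 10, against 1.25% of all protein-coding genes. The nearest IDR peak lay 33.3 kb from the unc-46 5′ end and 48.5 kb from that of mec-10, and 1997 kb from that of mec-4. A weaker summit was present in nearly all of the genes. In the pooled list 9 of 10 had at least 1, against 68.8% of all protein-coding genes. In the replicate 1 list 9 of 10 did, against 69.1%, and in the replicate 2 list 10 of 10 did, against 68.6%. All 10 had a summit in at least 1 replicate list, against 81.6%.

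These windows were longer than those of most genes, with a median of 5.09 kb for the 10 genes and 3.53 kb for all genes. Of the 11019 genes with windows of at least 3.33 kb, the shortest among the 10, 80.9% had a pooled summit. Per kilobase of window the 10 genes held 0.338 pooled summits, 0.392 replicate 1 summits and 0.351 replicate 2 summits. The same values over all protein-coding genes were 0.320, 0.321 and 0.316. The median gene of the 10 held 0.422, 0.523 and 0.354 summits per kilobase in the same order of lists, and the median of all genes held 0.294, 0.297 and 0.293. A summit in the window was thus common among all genes, and more so among genes with long windows. Rank 5000 or better in the pooled list was reached by 2 of 10 genes, unc-46 and mec-7, against 21.3% of all genes. Rank 10000 or better in the pooled list was reached by 8 of 10, against 35.5% of all genes and 45.5% of those with windows of at least 3.33 kb. The replicates differed at that rank. In replicate 2, 9 of 10 genes reached it, against 35.5% of all genes and 45.8% of those with long windows. In replicate 1, 4 of 10 did, against 36% and 46.3%, so the higher share was seen in replicate 2 and the pooled list and not in replicate 1.

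**Figure D1:**
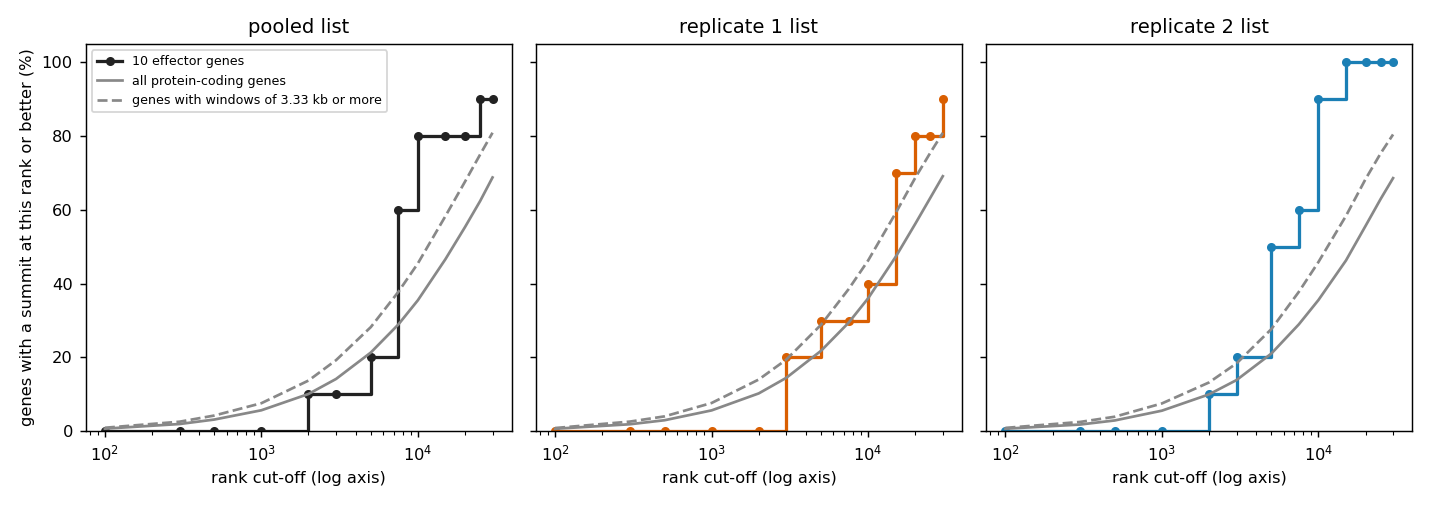
Cumulative percentage of genes (vertical axis) with a summit at a given rank or better (horizontal axis, log scale) in the pooled, replicate 1 and replicate 2 lists, for the 10 effector genes (coloured steps), all protein-coding genes (solid grey line) and genes with windows of 3.33 kb or more (dashed grey line), counted at the set of ranks marked by the points. The 10 genes have no summit of rank 1000 or better in any list, where the shares of all genes are 5.65%, 5.62% and 5.54%. A summit of rank 10000 or better is found for 8 of 10 in the left panel, 4 in the middle panel and 9 in the right panel.

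The sequences at 4 pooled summits upstream of a gene are shown, those of unc-46 and mec-7, the genes with the best ranks, and that of mec-17, where the replicates differed most in rank. They were read from the RefSeq copy of the WBcel235 (ce11) genome on the strand of the named gene, 5′ to 3′, as 151 bases centred on the summit. Capitals mark TAATTA, the core bound by paired-class homeodomains, or TAATCC, the core bound by bicoid-type homeodomains such as UNC-30, each searched on both strands. None of these 4 sequences holds either motif, so they are all in lower case.
unc-46, 1400 bp upstream (chrV:5100350-5100500, minus strand): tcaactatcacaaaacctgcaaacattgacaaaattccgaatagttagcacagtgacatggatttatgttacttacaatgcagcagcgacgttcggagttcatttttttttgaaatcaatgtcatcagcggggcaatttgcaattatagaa
unc-46, 364 bp upstream (chrV:5099314-5099464, minus strand): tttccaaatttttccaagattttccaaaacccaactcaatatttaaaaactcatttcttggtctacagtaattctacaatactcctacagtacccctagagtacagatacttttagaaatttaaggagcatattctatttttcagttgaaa
mec-7, 1340 bp upstream (chrX:7777954-7778104, minus strand): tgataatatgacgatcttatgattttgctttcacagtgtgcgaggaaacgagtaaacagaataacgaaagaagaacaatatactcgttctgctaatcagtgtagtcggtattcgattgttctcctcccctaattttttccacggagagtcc
mec-17, 1223 bp upstream (chrIV:7988331-7988481, minus strand): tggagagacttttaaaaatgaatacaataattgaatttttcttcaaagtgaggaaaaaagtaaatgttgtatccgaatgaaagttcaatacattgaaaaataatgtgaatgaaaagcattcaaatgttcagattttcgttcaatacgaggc

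The vesicular protein gene unc-46 held the strongest region of the 10 genes in each of the 3 lists, and each of its 3 pooled summits had a summit of both replicates within 200 bp. Its product, a LAMP-like membrane protein, brings the GABA transporter UNC-47 to synaptic vesicles. The gene (WBGene00006782) lies on the minus strand of chromosome V at 5097075 to 5099025. It held 3 summits in each list, in a window of 3.45 kb. The farthest upstream lay 1400 bp from the 5′ end, with a pooled signal of 85.9 (rank 1169). Replicate 1 gave it a signal of 40.6 (rank 2411) and replicate 2 a signal of 46.9 (rank 1570). Its summits in the 3 lists fell within 9 bp of each other. That position is inside the neighbouring gene srab-1, which encodes a putative chemoreceptor of the serpentine class. The next lay 364 bp upstream of unc-46, outside any other gene, with a pooled signal of 75.8. That region held rank 2704 of the pooled list, 3143 of replicate 1 and 4524 of replicate 2. The third was in the first coding exon, 181 bp downstream of the 5′ end, at rank 4733 in the pooled list. Its replicate 1 counterpart, at rank 11057, was 176 bp away in the second exon, and its replicate 2 counterpart, at rank 7310, was 3 bp away. The summit density of unc-46, 0.869 per kb, was the highest of the 10 genes. Of all protein-coding genes, 6.48% had a best pooled rank as good as or better than 1169.

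The other GABA genes had weaker regions. The gene unc-25 (WBGene00006762, chromosome III, 12942651 to 12949883, plus strand) encodes glutamic acid decarboxylase, which makes GABA. It had 3 pooled summits, of which the strongest was in intron 4, 2980 bp downstream of the 5′ end (signal 66.3, rank 5803). That region stood at rank 4967 in replicate 2 and at 20810 in replicate 1, with summits 13 bp apart. The other 2 pooled summits were 594 bp downstream, in intron 1 (rank 23084), and 341 bp upstream (rank 24357). The upstream one had partners at rank 5700 in replicate 2 and 17727 in replicate 1. The replicate 1 summit lay 188 bp from the pooled one and inside epg-3, an autophagy gene. Replicate 2 listed a further region 143 bp upstream, at rank 12663 and 198 bp from that pooled summit.

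The gene unc-47 (WBGene00006783, chromosome III, 10183762 to 10186260, minus strand) encodes the vesicular GABA transporter. Its best pooled region was the weakest among the 9 genes with a pooled summit. Its summits stood at rank 24139, in intron 3, and rank 25021, in intron 1 and 169 bp downstream of the 5′ end. The intron 1 region was low in both replicates, at rank 26808 in replicate 1 and 28343 in replicate 2. The intron 3 region stood at rank 5452 in replicate 2 and had no replicate 1 summit within 200 bp. Replicate 1 alone listed a region in intron 6, at rank 29444. No summit of any list lay in the 1500 bp upstream of unc-47.

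The promoters of unc-25 and unc-47 are known from earlier work as direct targets of UNC-30, so both cores were looked for from 250 bp upstream to 50 bp downstream of each 5′ end. TAATCC was in 2 of the 10, unc-25 and unc-47, and in 9.37% of all protein-coding genes. TAATTA was in 0 of the 10 and in 15.5% of all. The matches are shown so that their distance to the ALR-1-GFP summits can be read. Capitals mark the motif, or GGATTA where it is on the opposite strand, with 30 bases on each side and read on the gene's strand.
unc-25, 57 bp upstream (chrIII:12942564-12942629, plus strand): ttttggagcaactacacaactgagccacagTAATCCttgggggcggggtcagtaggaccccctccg
unc-25, 107 bp upstream (chrIII:12942514-12942579, plus strand): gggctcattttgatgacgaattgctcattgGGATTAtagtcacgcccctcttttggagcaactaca
unc-47, 189 bp upstream (chrIII:10186414-10186479, minus strand): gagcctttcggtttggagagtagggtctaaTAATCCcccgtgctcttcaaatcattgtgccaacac
The unc-25 site 57 bp upstream was 86 bp from the replicate 2 summit of rank 12663. That 107 bp upstream was 36 bp from the same summit and 422 bp from the nearest replicate 1 summit. The nearest pooled summit was 234 bp away. The unc-47 site was 353 bp from the nearest pooled summit, 355 bp from that of replicate 1 and 316 bp from that of replicate 2. A match of 6 letters is a description of the sequence and not evidence of a bound site.

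**Figure D2:**
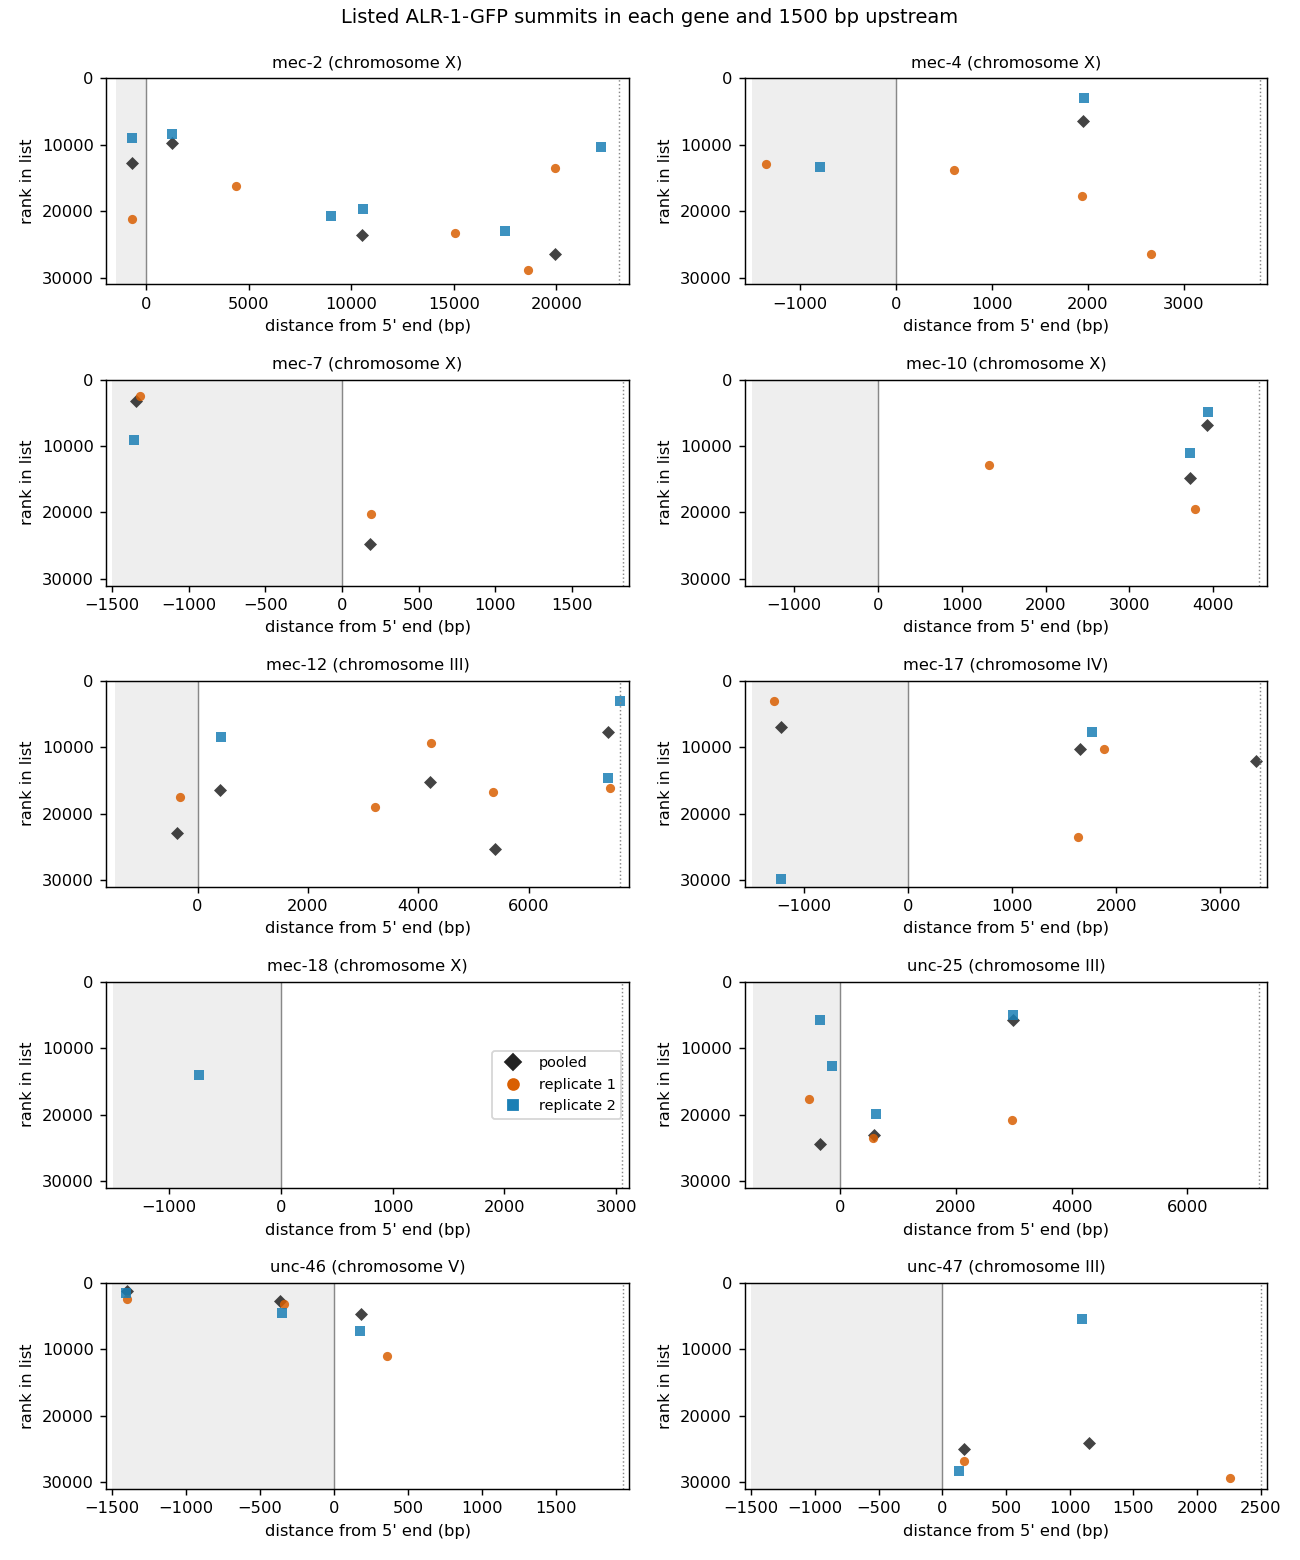
Rank in its list (vertical axis, 0 at the top) of every summit in the 10 genes against distance from the annotated 5′ end in bp (horizontal axis, its own scale for each gene), with diamonds for the pooled list, circles for replicate 1 and squares for replicate 2. Grey shading marks the 1500 bp upstream, the solid line the 5′ end and the dotted line the 3′ end. Points of the 3 lists lie on top of each other near the top of the unc-46 panel, and the mec-18 panel holds 1 replicate 2 point.

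The 3 genes of the touch channel held their best pooled regions inside the gene, for mec-2 as measured from its outermost annotated 5′ end. The pore-forming subunits of the mechanosensory channel are encoded by mec-4 and mec-10, both of the DEG/ENaC family of sodium channels. In mec-4 (WBGene00003168, chromosome X, 16803321 to 16807115, minus strand) the pooled list had 1 summit, in coding exon 6 at 1955 bp from the 5′ end (signal 65.1, rank 6397). Replicate 2 gave it a signal of 42.6 (rank 2897) and replicate 1 a signal of 26.5 (rank 17621), with summits 24 bp apart. Replicate 1 alone listed regions in coding exon 2 (rank 13839) and coding exon 10 (rank 26490). The lists of the replicates held further regions upstream that did not match, 796 bp upstream in replicate 2 (rank 13387) and 1359 bp upstream in replicate 1 (rank 12800). Both lay inside the adjacent gene cas-1, which encodes a cyclase-associated actin regulator.

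In mec-10 (WBGene00003174, chromosome X, 8465760 to 8470314, minus strand) the 2 pooled summits were in introns 15 and 14, 3929 and 3726 bp from the 5′ end. They stood at rank 6836 (signal 64.2) and rank 14769. Replicate 2 listed both, at ranks 4828 and 10985. Replicate 1 had 1 summit between them, at rank 19442, which lay within 200 bp of both. The best replicate 1 region of mec-10 was another, in coding exon 5 at rank 12812, with no partner in the other lists. No list had a summit in the 1500 bp upstream of mec-10.

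The gene mec-2 (WBGene00003166, chromosome X, 5567754 to 5590830, plus strand) encodes a stomatin-like protein that binds the channel and regulates it. At 23077 bp it was the longest of the 10, and it had 17 annotated transcripts. Its 4 pooled summits were spread from 696 bp upstream to 19920 bp downstream, and 0.163 per kb was the lowest density among the 9 genes with a pooled summit. The best stood at rank 9761 (1223 bp downstream), with replicate 2 at rank 8334 and no replicate 1 summit within 200 bp. That summit lay inside the gene but upstream of the first exon of its longest annotated transcript. The summit 696 bp upstream was the only one matched in both replicates, at ranks 21158 in replicate 1 and 8920 in replicate 2, where the summits coincided.

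Pooled summits of mec-2 and mec-10 were the 2 of 25 with TAATTA within 100 bp, or 8%, against 10.45% of all 30000 pooled regions (3135 regions). The sequences are shown because they carry the only such matches, in capitals.
mec-2, 1223 bp downstream (chrX:5568902-5569052, plus strand): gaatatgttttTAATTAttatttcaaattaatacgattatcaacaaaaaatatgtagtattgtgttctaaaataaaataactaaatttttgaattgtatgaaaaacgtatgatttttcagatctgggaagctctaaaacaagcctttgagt
mec-10, 3726 bp downstream (chrX:8466513-8466663, minus strand): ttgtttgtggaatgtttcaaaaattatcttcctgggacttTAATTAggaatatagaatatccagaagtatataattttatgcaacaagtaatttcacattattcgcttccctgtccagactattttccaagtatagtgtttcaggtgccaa
TAATCC was within 100 bp of 1 pooled summit, that of mec-12 at rank 7735, or 4% against 7.44% of all pooled regions. Within 50 bp, TAATTA was at 1 of 25 summits (4%, against 5.39%) and TAATCC at 1 of 25 (4%, against 3.78%). With counts of 1 or 2 summits, no difference from the whole list can be read. GC content in the 151 bases at the summits was 35.3% ± 7.44 (SD over 25 summits), against 35.7% ± 8.25 over all pooled regions.

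The tubulin genes differed in where their regions lay. The gene mec-7 encodes a β-tubulin and mec-12 an α-tubulin of the large microtubules of touch receptor neurons. In mec-7 (WBGene00003171, chromosome X, 7774856 to 7776689, minus strand) the better pooled summit lay 1340 bp upstream (signal 73.8, rank 3209), inside the gene ZK154.4. Replicate 1 gave it a signal of 40.4 (rank 2501) and replicate 2 a signal of 33.9 (rank 9149), with summits 41 bp apart. With 500 bp upstream in place of 1500 bp, mec-7 would keep only the summit in intron 1, 186 bp from the 5′ end, at rank 24745. That region had a replicate 1 partner (rank 20174) and no replicate 2 partner.

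The gene mec-12 (WBGene00003175, chromosome III, 3131574 to 3139234, minus strand) held 5 pooled summits, the most of the 10 genes. The best was in coding exon 5, 7447 bp from the 5′ end (signal 62.7, rank 7735), and it was the only one with partners in both replicates, at ranks 16234 in replicate 1 and 14659 in replicate 2. The other 4 stood between rank 15247 and rank 25393, of which 3 had a replicate 1 partner only and that in intron 1 a replicate 2 partner only. The best replicate 2 region of mec-12, at rank 3025, had its summit in the 3′ UTR where the gene overlaps Y53G8B.1.

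The gene mec-17 (WBGene00003178, chromosome IV, 7983802 to 7987183, minus strand) encodes the acetyltransferase that modifies α-tubulin, and it held the summit with the largest difference in rank between replicates. The pooled summit 1223 bp upstream (signal 63.8, rank 7057) stood at rank 3017 in replicate 1 and at 29915 in replicate 2, close to the end of that list. No other protein-coding gene covered that position. A second pooled summit lay in coding exon 2 (rank 10366), matched at rank 23511 in replicate 1 and 7755 in replicate 2. Replicate 1 listed a further region in intron 2, at rank 10256 and 234 bp from that pooled summit. It lay 118 bp from the replicate 2 summit of rank 7755, nearer than the replicate 1 summit of rank 23511 (134 bp). The third pooled summit lay in the 3′ UTR, where mec-17 overlaps arf-5, at rank 12137. It had a replicate 2 partner 40 bp away at rank 6268 that fell outside the gene, and no replicate 1 summit within 200 bp.

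The gene mec-18 (WBGene00003179, chromosome X, 4271165 to 4274216, minus strand) encodes a protein related to acyl-CoA synthetases that is made in touch receptor neurons. It was the only one of the 10 with no region in the pooled list and none in replicate 1. Replicate 2 had 1 region, 733 bp upstream at rank 14092, inside both twk-28, a potassium channel gene, and C52B9.10. No summit of any list lay within mec-18 itself.

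**Figure D3:**
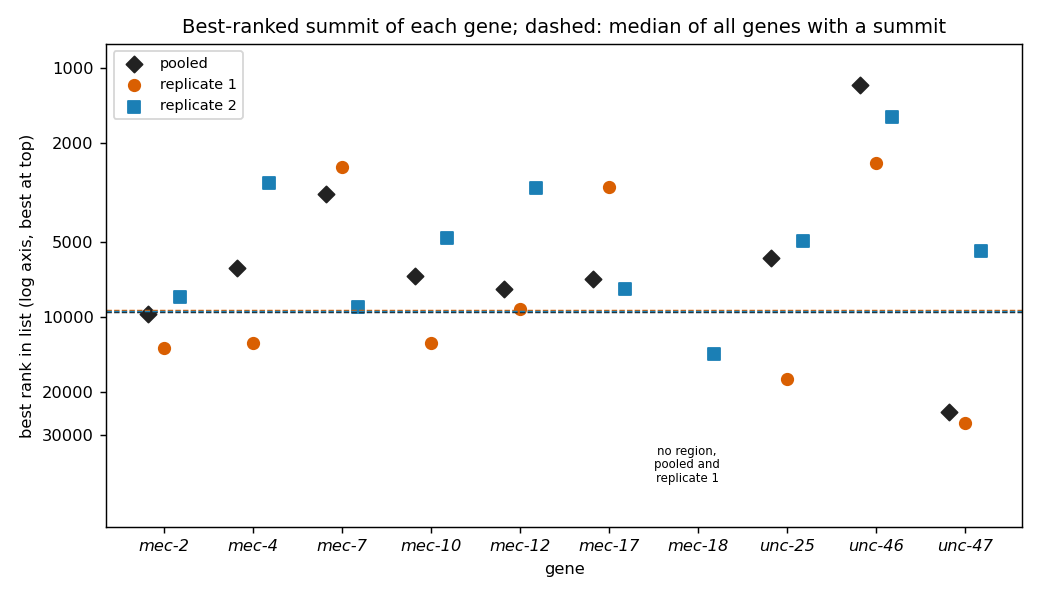
Best rank of each gene (vertical axis, log scale with the best rank at the top) in the pooled list (diamonds), replicate 1 (circles) and replicate 2 (squares). The dashed lines are the medians over all protein-coding genes with a summit, 9566, 9426 and 9482, and mec-7, mec-12, mec-17 and unc-46 rank better than the median in all 3 lists. The medians are not limited to genes with long windows. The share of all genes that rank better than the median in all 3 lists was not computed.

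The summits fell in several kinds of position. Of the 25 pooled summits, 7 were upstream, 6 in coding exons, 11 in introns and 1 in a 3′ UTR. Of the 7 upstream, 3 were within 500 bp of the 5′ end, at unc-25, unc-46 and mec-12. Another 2 of the 7 lay inside a neighbouring protein-coding gene, at unc-46 and mec-7. Each is the best pooled region of its gene, and the lists do not assign it to unc-46 rather than srab-1, or to mec-7 rather than ZK154.4. Without summits inside other genes, the best pooled rank of the 10 genes was 2704, that of the unc-46 region 364 bp upstream. At least 3 pooled summits fell in the windows of mec-2, mec-12, mec-17, unc-25 and unc-46. That was 5 of 10 genes, against 19% of all protein-coding genes and 30.8% of those with windows of at least 3.33 kb.

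Over the full lists, most of the 10 genes had summits of both replicates at about the same place. A summit of each replicate lay within 200 bp of the other in 9 of 10 genes, all but mec-18, against 42.4% of all protein-coding genes and 54% of those with windows of at least 3.33 kb. With 500 bp upstream 7 of the 10 genes had such a pair, and without summits inside other protein-coding genes 8 did. With the top 10000 regions of each list 2 of the 10 genes had such a pair, and with the top 5000 regions 1 did. Shorter lists hold fewer regions by construction. The shares of all genes with such a pair under these alternatives were not computed, so the lower counts cannot be set against them. Of the 29 replicate 1 summits, 15 had a replicate 2 summit within 200 bp (51.7%), against 43.8% over the windows of all protein-coding genes. Of the 26 replicate 2 summits, 16 had a replicate 1 summit that near (61.5%, against 44.9%). With 100 bp in place of 200 bp the matched shares of the 10 genes were 37.9% in replicate 1 and 42.3% in replicate 2. With 500 bp they were 51.7% and 65.4%. Shares over all genes at 100 and 500 bp were not computed. Of the 25 pooled summits, 15 had a summit of both replicates within 200 bp (60%, against 43.9%). Replicate 1 only was found at 5 (20%, against 25.1%) and replicate 2 only at 5 (20%, against 25.1%). Neither was found at 0, against 5.87%. The pooled list holds the reads of both replicates, so it is not independent of them.

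Over those 15 summits the rank differed between replicates by a factor of 2.37 at the median, from 1.06 in unc-47 to 9.92 in mec-17. Replicate 2 had the better rank at 11 and replicate 1 at 4. The 15 summits come from 9 genes and are not independent. Both mec-10 summits are matched to the same replicate 1 summit, of rank 19442. Both replicates ranked the region at 5000 or better at 2 of the 15, both at unc-46. Counting each gene's best region in each list separately, unc-46 alone of the 10 reached rank 5000 in both, against 10.4% of all protein-coding genes. The median best rank of the 10 genes was 12800 in replicate 1 (9 genes) and 5210 in replicate 2 (10 genes), where the medians over all genes with a summit were 9426 and 9482. The latter medians are not limited to genes with windows as long as those of the 10 genes. Of the 9 genes listed in both replicates, mec-7 and mec-17 had their better rank in replicate 1 and the others in replicate 2.

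**Figure D4:**
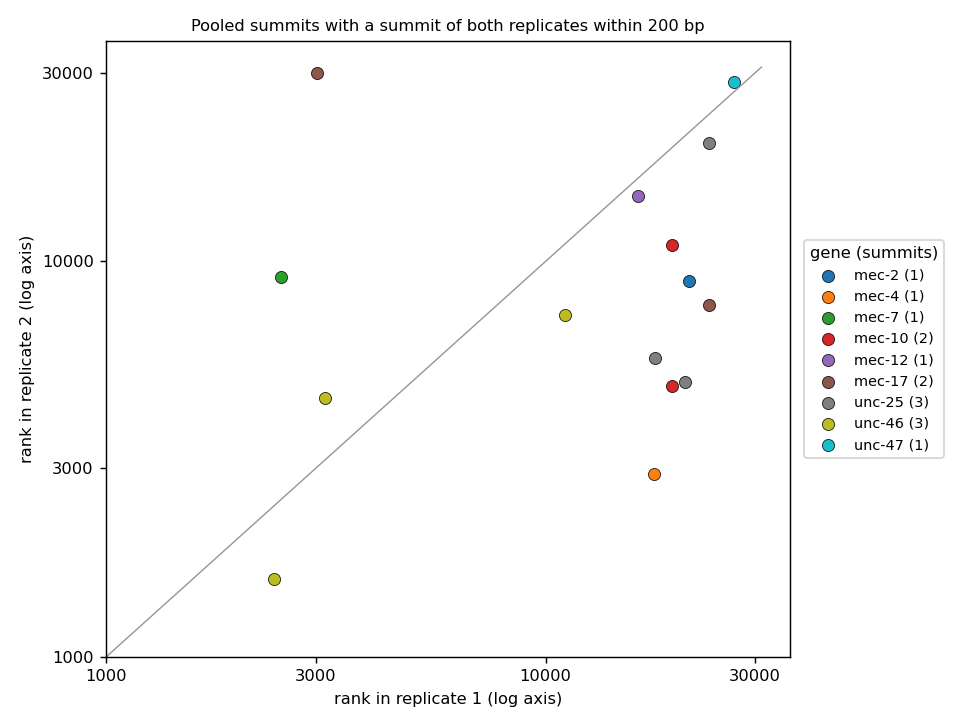
Rank in replicate 2 (vertical axis, log scale) against rank in replicate 1 (horizontal axis, log scale) for the 15 pooled summits in 9 genes that have a summit of both replicates within 200 bp, with the number of summits of each gene in the key and equal ranks on the diagonal line. The points of unc-46 lie near the diagonal, and that of mec-17 at rank 3017 in replicate 1 and 29915 in replicate 2 lies farthest from it.

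Other genes of the same pathways, not limited to products of the same cells, were read by the same rule. For that rule the shares over all protein-coding genes were 68.8% with a pooled summit, 42.4% with matched replicate summits and 1.25% with an IDR peak. Among genes with windows of at least 3.33 kb, 80.9% had a pooled summit and 54% matched replicate summits. In a list of 9 further touch receptor genes, 8 had a pooled summit, 5 had matched replicate summits and 0 had an IDR peak. The best was mec-5, which encodes a collagen laid down around the touch receptor neurons, with pooled rank 1012, replicate 1 rank 1603 and replicate 2 rank 1974. The regulators in that list were lower, with unc-86 at a best pooled rank of 8044 and mec-3 without a summit in any list. In a list of 10 further GABA genes, 8 had a pooled summit, 5 had matched replicate summits and 0 had an IDR peak. The GABA-A-type receptor gene unc-49 had pooled rank 963, replicate 1 rank 2287 and replicate 2 rank 1330. The GABA-B-type receptor gene gbb-2 stood at rank 2223, with ranks of 11802 in replicate 1 and 816 in replicate 2. The regulator gene unc-30 had 5 pooled summits, the best at rank 8402. In the pooled list both unc-49 and mec-5 ranked above unc-46, the best of the 10 effector genes, and in replicate 2 unc-46 (rank 1570) ranked above mec-5.

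For comparison with another transmitter, all 6 acetylcholine genes had a pooled summit, and 5 had matched replicate summits, with 0 IDR peaks. The best was cho-1, the choline transporter gene, with pooled rank 1211, replicate 1 rank 696 and replicate 2 rank 3600. Of these 6, unc-17 and cha-1 share a locus and some of their regions. Pooled summits per kilobase were 0.294 in the 7 touch receptor effectors and 0.494 in the 3 GABA effectors, against 0.320 over all protein-coding genes. The value for the GABA effectors rests on 8 summits in 16.2 kb of windows, and 3 of the 8 are at unc-46. In the further touch receptor, further GABA and acetylcholine genes the summits per kilobase were 0.219, 0.231 and 0.329.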

How the data were processed

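The deposited text files name what each list was derived from: a replicate's list from its own alignments with a control file, the pooled list from both alignments with the same control, and the IDR list from these 3. Positions are in ce11, as the labels say. The sources used here do not give the aligner, peak caller, settings or IDR threshold, and control data were not used here. The deposited signal (column 7) was used for ranking inside each list and nothing else, with rank 1 the highest. No region ran past a chromosome end of the RefSeq genome of the same assembly (WBcel235). Genes came from Ensembl release 115, and coordinates are 1-based. Windows, distances, motif searches and shares over all 19973 nuclear protein-coding genes were computed with Python 3.11.15, numpy 2.4.6, pandas 2.3.3 and matplotlib 3.10.9. Each position was read from the gene's annotated transcripts. All 10 genes are named with their values. Of the further genes, those of pooled rank 5000 or better and mec-3, unc-30 and unc-86 are named, along with genes that overlap a summit. The genes, lists and motifs were chosen with earlier results of these data known. Added after the values were seen were the promoter search, the shares among genes with long windows, the shares of all genes at rank 10000, the 50 bp motif window, the matched shares at 100 and 500 bp, and the removal of summits inside other genes. Alternatives were other window lengths, any overlap in place of the summit, shorter lists, other matching distances and each replicate alone. Window and matching steps were tested on simulated data. The labels call the 2 samples biological replicates.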

Additional observations from a re-analysis of the deposited data

How the results depend on the processing

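Of 86 values recomputed under alternatives, 68 lay within 1.5 times of the value reported and 18 did not. No alternative window gave any of the 10 genes an IDR peak. None of the 10 had a region among the top 1000 of the pooled list, against 5.65% of all genes. Among genes with windows of at least 3.33 kb that share was 7.57%. With 10 genes, a count of 0 is near these shares. The best pooled rank was 2704 with 500 bp upstream, 4733 inside genes only, and 2704 without summits inside other protein-coding genes, an alternative added after seeing the data. Inside genes only, 17 replicate 2 summits were left, and 8 of the 10 genes had one. The share of all genes under that rule was not computed, so this count cannot be set against it. With the top 10000 regions of each list, 4 genes had a replicate 1 summit, against 36% of all genes, and 2 had replicate summits within 200 bp. There were 10 pooled, 5 replicate 1 and 14 replicate 2 summits. With the top 5000 regions, 2 genes had a pooled summit, against 21.3% of all genes. A replicate 1 summit was found in 3 genes, against 21.8%, and a replicate 2 summit in 5, against 21.0%. Among genes with windows of at least 3.33 kb the shares were 28.2%, 28.8% and 27.7%. Replicate summits within 200 bp were left in 1 gene. There were then 4 pooled, 4 replicate 1 and 6 replicate 2 summits, and the median best pooled rank was 2189. Shorter lists hold fewer regions by construction. TAATTA was within 50 bp of 4% of pooled summits, also an alternative added later. All 10 genes had a summit without replicate 1, against 68.6% of all genes, and 9 did without replicate 2, against 69.1%. No paired analysis was possible because there is 1 group. Depth is unknown and the lists end at a fixed number of regions, so weaker signal at these genes was not detectable here.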
